A study of Homo sapiens with 3 samples.

Results

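The clusters described here are stretches of RNA bound by DICER that cross the junction between an annotated exon and the neighbouring intron. A cluster was a member when the deposited annotation listed, on its own strand, the same transcript with both an exon and an intron, when it carried no mark of a noncoding transcript and when it lay outside the mitochondrial genome. Equal exon and intron numbers put it at a 5′ splice site, the upstream end of an intron. An exon number 1 above the intron number put it at a 3′ splice site, the downstream end. The rule found 179 of 11577, 219 of 18065 and 45 of 5099 listed clusters in replicates 1, 2 and 3, and 169 of 8469 in the authors' series-wide list. Another 19, 12 and 5 clusters of replicates 1, 2 and 3, and 17 of the series-wide list, crossed a boundary of a transcript marked noncoding and were left out.

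DICER, an enzyme of the RNase III family, makes mature microRNAs from hairpin precursors and short interfering RNAs from long double-stranded RNA. Introns are removed from pre-mRNA in the nucleus, most of them begin with the bases GU, and a small number, called mirtrons, fold after splicing into hairpins that DICER cuts. A bound stretch that holds both exon and intron bases lies across a site that splicing would separate in the annotated transcript. A cluster is built from overlapping reads, so no single read need cross the boundary, and a boundary of one transcript can lie inside an exon of another.

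The study used HEK293, a human embryonic kidney cell line, with a FLAG-tagged DICER in a Flp-In T-Rex line, which places the transgene at a fixed genomic site under an inducible promoter. All 3 samples carried this transgene and were PAR-CLIP libraries with RNase T1. In PAR-CLIP, 4-thiouridine in RNA is crosslinked to the bound protein, and crosslinked sites are read as T-to-C conversions. The labels give a single group of 3 replicates, with no library from cells without the tagged DICER and no measure of RNA abundance among the samples, so frequent binding and plentiful RNA cannot be told apart. They do not say whether the replicates were separate cultures, and the spread between them may be technical.

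The 3 replicate lists held 595487 to 1306125 conversions, which are totals of listed clusters and not sequencing depth. Replicate 3 stood apart with the fewest clusters and the thinnest support. Of its spanning clusters, 95.6% rested on 2 distinct reads, against 48.0% in replicate 1 and 66.2% in replicate 2. Over all clusters of a list, that share was 81.2% in replicate 3, 48.2% in replicate 1 and 72.1% in replicate 2. Of the listed defining markers of other cell types, 2, 2 and 1 had any exon or intron cluster in replicates 1, 2 and 3, and none had a spanning cluster.

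Clusters across a boundary were a small part of what was bound. They were 1.55%, 1.21% and 0.883% of the listed clusters in replicates 1, 2 and 3, on average 1.21% ± 0.332 (SD, n = 3). Their share of conversions was lower, at 0.360%, 0.313% and 0.182%, with a mean of 0.285% ± 0.0924 (SD, n = 3). The whole lists also hold clusters on abundant small RNAs with many copies of each read. Clusters across a boundary had 6.21, 3.93 and 11.03 reads per distinct read in replicates 1, 2 and 3, against 18.6, 17.8 and 33.8 over all clusters. Counted in distinct reads, the spanning clusters held 0.850%, 0.873% and 0.333% of each replicate. The 10 strongest spanning clusters held 42.3%, 53.2% and 50.1% of the conversions of all spanning clusters in replicates 1, 2 and 3. The matching share for other kinds of cluster is not given.

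Both ends of introns were crossed. There were 88, 119 and 25 spanning clusters at 5′ splice sites and 91, 101 and 20 at 3′ splice sites in replicates 1, 2 and 3, with 1 cluster of replicate 2 counted at both. The 5′ splice sites thus had 49.2%, 54.3% and 55.6% of the members. The 5′ share minus the 3′ share was -1.68, 8.22 and 11.1 percentage points, a mean of 5.88 ± 6.71 (SD, n = 3), and was positive in 2 of 3 replicates. An exact two-sided sign-flip permutation test over the replicates gave p = 0.5, adjusted p = 0.9 over 9 tests by Benjamini-Hochberg. With 3 replicates the smallest p this test can give is 0.25, so no comparison here could pass a threshold of 0.05. In the series-wide list the order was turned, with 81 members at 5′ and 89 at 3′ splice sites, and it was also turned among clusters with at least 3 distinct reads, where the difference averaged -9.88 points.

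DROSHA, the nuclear RNase III enzyme that releases microRNA hairpins from their primary transcripts, had the strongest member described here at a 5′ splice site, at chr5:31515530-31515593 on the minus strand (hg19). This 64 nt cluster lies in coding sequence at intron 4 or intron 6 and had 653 conversions from 69 distinct reads in the series-wide list. In replicates 1, 2 and 3 the overlapping clusters had 458, 151 and 169 conversions, and each of them crossed the boundary. The deposited annotation placed at least 2 bases in the exon and at least 31 in the intron, so here the intronic part was more than a margin. A position deposited for each cluster was read as its crosslink centre, from the values themselves and not from documentation. The crosslink centre at DROSHA changed side: it was base 2, in the exon, in the series-wide list and replicate 1. In replicate 2 it was base 35, in the intron, and in replicate 3 base 27, which could not be placed. DROSHA was 1 of only 3 loci with a spanning cluster in every replicate list. The others were MYBL2, a transcription factor of the cell cycle, with 217, 107 and 27 conversions at a 3′ splice site, and RABGAP1, a GTPase-activating protein of Rab proteins, with 22, 11 and 3 at a 5′ splice site in its 5′ untranslated region.

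**Figure D1:**
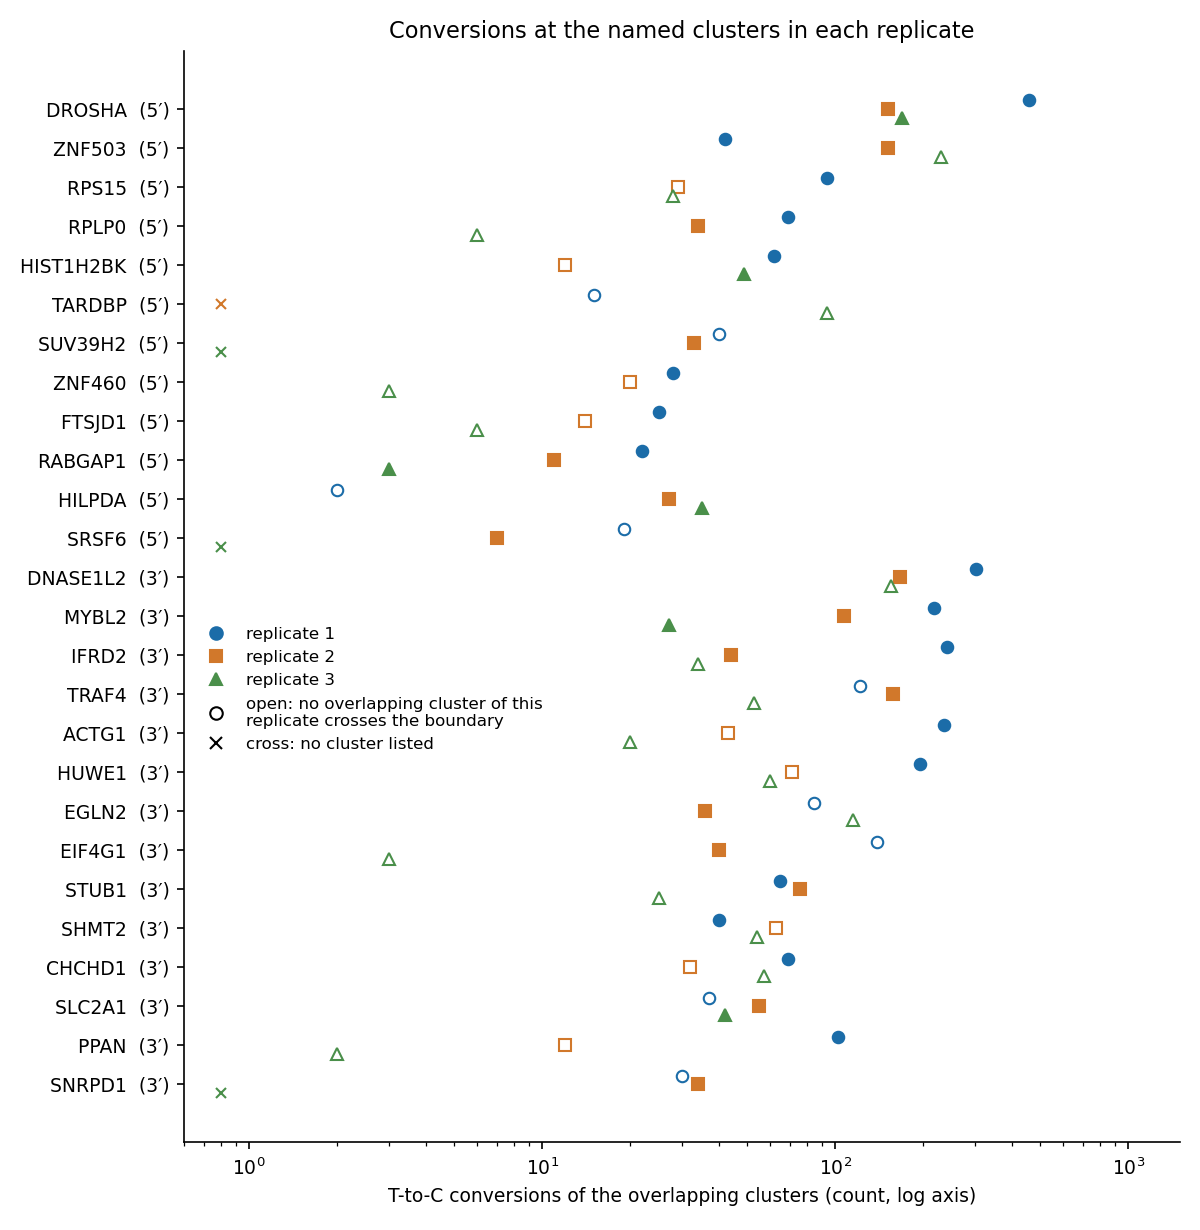
T-to-C conversions (log axis) of the clusters that overlap each named spanning cluster of the series-wide list, one row per gene, with members at 5′ splice sites above those at 3′ splice sites. Filled symbols mark replicates with an overlapping cluster that itself crosses the boundary, open symbols those without, and crosses those with no cluster; all 3 symbols are filled only for DROSHA, RABGAP1 and MYBL2.

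The other 5′ members chosen by rank leaned toward first introns and untranslated leaders. Replicate counts here and below are of every overlapping cluster, whether or not it crossed the boundary. ZNF503, a zinc finger regulator of transcription, had a 46 nt cluster at its start site and first intron with 301 conversions, and 42, 152 and 229 in the replicates. RPLP0, a protein of the ribosomal stalk, had a 72 nt cluster at intron 1 with 90 conversions, and 69, 34 and 6 in the replicates. TARDBP, which encodes the RNA-binding protein TDP-43, had an 87 nt cluster at intron 1 with 65 conversions, 15 in replicate 1, no cluster in replicate 2 and 94 in replicate 3. Both replicate clusters at TARDBP were annotated as exon alone. In ZNF503, RPLP0 and TARDBP only 1 intronic base was certain, and the crosslink centre lay in the exon. At ZNF503 and RPLP0 the clusters of replicates 1 and 2 crossed the boundary and that of replicate 3 was exon alone. For these 2 genes another transcript had an exon and no intron at the cluster.

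FTSJD1, which encodes a methyltransferase of the mRNA cap, had 37 conversions at intron 1, with 25, 14 and 6 in the replicates. HILPDA, a lipid droplet protein induced by hypoxia, had 33 at its own intron 1, with 2, 27 and 35. ZNF460, another zinc finger protein, had 42 conversions at intron 2, with 28, 20 and 3. SUV39H2, a histone lysine methyltransferase, had 64 in coding sequence at intron 3 or intron 4, with 40 in replicate 1, 33 in replicate 2 and no cluster in replicate 3. In all 4 genes the centre lay in the exon. Only replicate 1 listed a crossing cluster at FTSJD1 and ZNF460, only replicate 2 at SUV39H2, and replicates 2 and 3 at HILPDA. The other replicate clusters at these genes were exon alone. ZNF460 crossed by only 1 or 2 intronic bases. At FTSJD1 and HILPDA another transcript had an exon and no intron at the cluster.

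RPS15 and HIST1H2BK were different in that the crosslink centre lay in the intron. RPS15, a protein of the small ribosomal subunit, had an 82 nt cluster at chr19:1440241-1440322 on the plus strand with 124 conversions, and 94, 29 and 28 in the replicates. HIST1H2BK, a histone H2B gene, had 83 conversions at chr6:27114142-27114222 on the minus strand, with 62, 12 and 49 in the replicates. Replication-dependent histone mRNAs are made without introns, and the boundary belongs to a longer annotated transcript. For both genes another transcript had an exon and no intron at the series-wide cluster, so the boundary holds only for some annotated forms. At HIST1H2BK no such transcript was listed at the 54 nt cluster of replicate 1, and the replicate 2 cluster was intron alone. A crossing cluster was listed at RPS15 only in replicate 1, and at HIST1H2BK in replicates 1 and 3.

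At 3′ splice sites the strongest member lay in DNASE1L2, an endonuclease of the DNase I family, at chr16:2287128-2287219 on the plus strand. It had 487 conversions from 99 distinct reads in the series-wide list, the most distinct reads of any member. Overlapping clusters had 303, 166 and 155 conversions in replicates 1, 2 and 3. The cluster was 92 nt long, held 1 or 2 exonic bases and 90 or 91 intronic bases, and carried the marks of both splice sites, so it covered intron 2 or intron 3, depending on the transcript, from end to end. Its centre was on the second base of the intron in replicates 1 and 2. Replicate 3 listed 2 intron clusters in place of 1, centred on bases 2 and 69.

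Clusters that took in a whole short intron recurred among the 3′ members. In the series-wide list 5 members counted at 3′ splice sites alone carried both splice-site marks: the pair in DNASE1L2 and those in IFRD2, HUWE1 and PPAN, with lengths of 77 to 92 nt. Each of the 5 was overlapped by clusters of all 3 replicates. A 60 nt member in RPL17, counted at both kinds of site and overlapped in 1 replicate, also carried both marks and is not among the 5. HUWE1, a ubiquitin ligase, had 262 conversions at chrX:53578150-53578226 on the minus strand, at intron 63 or intron 64, with 195, 71 and 60 in the replicates. Its intron was 76 nt long: replicate 2 listed a cluster of exactly that length with both marks and no exon, while the series-wide cluster was 77 nt long with 1 exonic base. Replicate 3 again listed 2 clusters, centred on bases 2 and 53. IFRD2 had 278 conversions, with 240, 44 and 34 in the replicates. PPAN, which acts in ribosome biogenesis and hosts a small nucleolar RNA, had 102 conversions, with 102, 12 and 2. Replicate 1 also held a 73 nt cluster of this kind in CKB, the brain form of creatine kinase, with 70 conversions.

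The crosslink centre lay on the second intron base in 3 of these 5 series-wide members, namely the stronger of the DNASE1L2 pair, IFRD2 and HUWE1. In replicate 1 the count was 4 of 6 and in replicate 2 it was 1 of 2. The same base held the centre of 67.0%, 57.8% and 69.0% of intron-only clusters that began at the first intron base in replicates 1, 2 and 3. These were not members, since they stop short of the exon by rule. Of all other intron-only clusters, 6.28%, 2.77% and 4.28% had their centre on the second base of the cluster. The 2 sets are not alike, since most introns begin with GU and so have a base that can convert at that place. The second base of the other clusters is not fixed in this way, and the part that sequence plays was not tested. In the other 2 series-wide members, the weaker of the DNASE1L2 pair and PPAN, the centre was on bases 30 and 39.

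Among the remaining 3′ members, TRAF4, an adaptor of the tumour necrosis factor receptor family, crossed by a single exonic base. Its 71 nt cluster at chr17:27075459-27075529 on the plus strand had 276 conversions, and 122, 158 and 53 in the replicates, of which only replicate 2 listed a cluster that crossed. MYBL2 had 300 conversions in 29 nt at chr20:42328394-42328422 on the plus strand, from only 13 distinct reads, with its centre on base 14 in the series-wide list and in each replicate. ACTG1, cytoplasmic gamma actin, had 263 conversions in a 142 nt cluster, with 236, 43 and 20 in the replicates. That ACTG1 boundary belonged to 1 annotated transcript, and another transcript had an exon and no intron at the cluster. Only replicate 1 listed a crossing cluster there, which had 19 of the 236 conversions, from 5 distinct reads.

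EGLN2, a prolyl hydroxylase of hypoxia-inducible factors, had 165 conversions, with 85, 36 and 115 in the replicates, at bases that the annotation also gives to the read-through transcript RAB4B-EGLN2. EIF4G1, the scaffold of the cap-binding complex, had 160, with 139, 40 and 3. STUB1, a ubiquitin ligase that works with chaperones, had 144, with 65, 76 and 25. CHCHD1, a protein of the mitochondrial ribosome, had 120, with 69, 32 and 57. In these 4 genes the centre lay in the intron and as few as 1 exonic base was certain. Only replicate 2 listed a crossing cluster at EGLN2 and EIF4G1, only replicate 1 at CHCHD1, and replicates 1 and 2 at STUB1. The other replicate clusters at EGLN2, EIF4G1 and CHCHD1 were intron alone. At STUB1 another transcript had an exon and no intron at the cluster. SHMT2, the mitochondrial serine hydroxymethyltransferase, and SLC2A1, the glucose transporter of most cell types, had their centres in the exon. SHMT2 had 124 conversions, with 40, 63 and 54 in the replicates, and SLC2A1 had 107, with 37, 55 and 42. A crossing cluster was listed at SHMT2 only in replicate 1, and at SLC2A1 in replicates 2 and 3. The SLC2A1 cluster held 39 or 40 exonic bases and only 1 or 2 intronic bases. Its 42 conversions in replicate 3 came from 2 distinct reads.

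**Figure D2:**
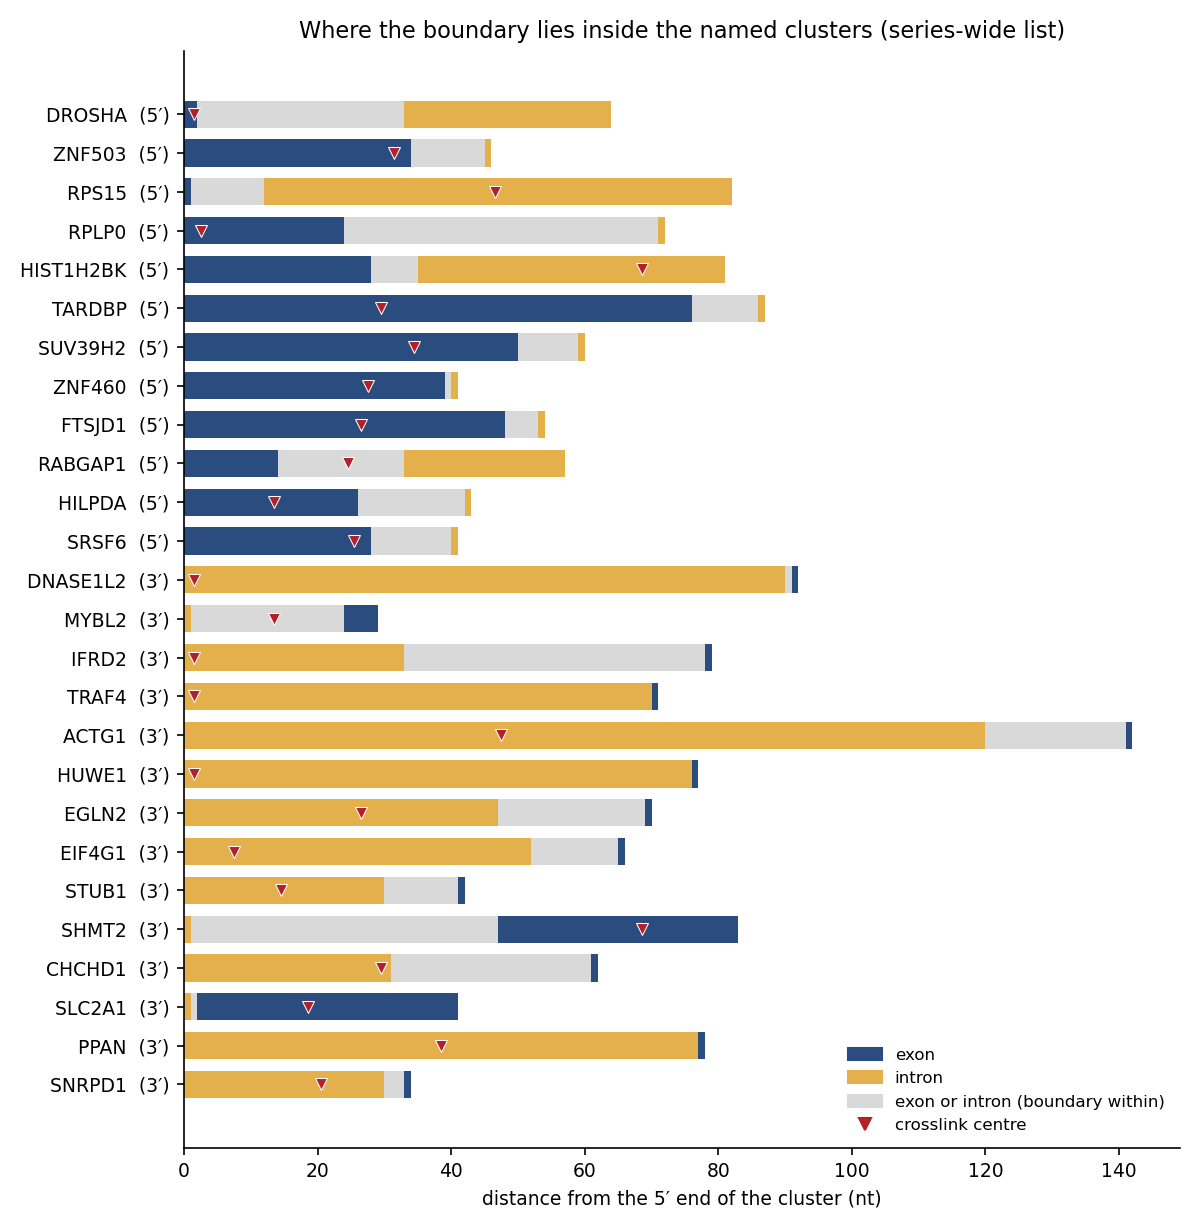
Position of the exon-intron boundary inside each named spanning cluster of the series-wide list, in nt from the 5′ end of the cluster; blue is exon, yellow is intron, grey holds the boundary at an unresolved place and the red triangle is the crosslink centre. TRAF4, HUWE1 and PPAN hold 1 exonic base each and are otherwise intron.

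How far the members reached across their boundary could be bounded from the annotation of neighbouring clusters of the same transcripts, without a genome. Leaving aside the 1 member at both kinds of site, the centre of 80 members at 5′ splice sites in the series-wide list lay in the exon for 16, in the intron for 15 and could not be placed for 49. Of 88 members at 3′ splice sites it lay in the intron for 32, in the exon for 9 and could not be placed for 47. Few members were shown to hold a large piece of both: at least 10 exonic and 10 intronic bases were certain for 3 members at 5′ and 2 at 3′ splice sites. A crossing of at most 2 bases was certain for 12 members of the series-wide list. The 5 members at 3′ splice sites with at most 2 exonic bases held 1139 of 4962 conversions.

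Conversions per spanning cluster lay near those of clusters on 1 side of a boundary. The median count was 13, 5 and 19 conversions per spanning cluster in replicates 1, 2 and 3. It was 13, 6 and 19 for clusters in exons of coding transcripts without an intron, and 11, 5 and 17 for clusters in introns without an exon. On the log2 scale the median of spanning minus exon clusters was 0, -0.26 and 0, a mean of -0.09 ± 0.15 (SD, n = 3; exact sign-flip permutation p = 1, adjusted p = 1). The median of spanning minus intron clusters was 0.24, 0 and 0.16, a mean of 0.13 ± 0.12 (SD, n = 3; exact sign-flip permutation p = 0.5, adjusted p = 0.9). Single members ran from 1 to 458, from 1 to 788 and from 2 to 169 conversions in replicates 1, 2 and 3. At 5′ splice sites the median was 12.5, 5 and 16 conversions, and at 3′ splice sites it was 14, 6 and 20.5. Conversions per read were 0.814, 0.869 and 1 for spanning clusters, against 0.887, 0.956 and 0.986 for exon clusters.

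Clusters with a mark of a noncoding transcript were left out by rule, so a high share of members in coding genes was set in part by the selection. A coding transcript was named for 171 of 179, 206 of 219 and 40 of 45 members in replicates 1, 2 and 3. Coding sequence was touched by 131, 160 and 30 members, the 5′ untranslated region by 45, 58 and 11, and the 3′ untranslated region by 26, 20 and 7. Repeats were marked on 11, 10 and 0 members, of which 1, 4 and 0 were Alu elements. The matching shares over all clusters are not given here. For 71, 67 and 17 members another transcript listed exon alone, that is an exon and no intron at the cluster, which need not cover all its bases.

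In each replicate, members at the 2 kinds of site had unlike shares at intron 1 and in the 5′ untranslated region. Members at 5′ splice sites were at intron 1 of at least 1 transcript in 50%, 48.7% and 56.0% of cases in replicates 1, 2 and 3, a mean of 51.6% ± 3.88 (SD, n = 3). Members at 3′ splice sites were at intron 1 in 31.9%, 23.8% and 35.0%, a mean of 30.2% ± 5.80 (SD, n = 3). The difference was 18.1, 25.0 and 21.0 percentage points, positive in 3 of 3 replicates, with a mean of 21.4 ± 3.44 (SD, n = 3). The ranges did not overlap, and the exact sign-flip permutation test gave p = 0.25, the smallest it can give, and adjusted p = 0.75. The 5′ untranslated region was touched by 36.4%, 39.5% and 32.0% of members at 5′ splice sites, and by 14.3%, 11.9% and 15.0% of those at 3′ splice sites. That difference was 22.1, 27.6 and 17.0 points, a mean of 22.2 ± 5.31 (SD, n = 3; exact sign-flip permutation p = 0.25, adjusted p = 0.75). Both of these comparisons were chosen after the data had been seen. They are not independent, since intron 1 and the 5′ untranslated region both lie toward the start of the transcript. The matching shares over all annotated splice sites are not given. Coding sequence was touched by 61.4%, 66.4% and 60% of members at 5′ and by 84.6%, 81.2% and 75.0% at 3′ splice sites.

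Intron-only clusters that began at the first intron base had another distribution. There were 106, 128 and 58 of them in replicates 1, 2 and 3, and 9.43%, 8.59% and 8.62% lay at intron 1. The share at intron 1 was higher for clusters that crossed the 5′ splice site than for those that started right behind it in each of the 3 replicates, and this difference was not tested. Of all intron-only clusters, 31.1%, 38.0% and 40.2% were at intron 1.

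**Figure D3:**
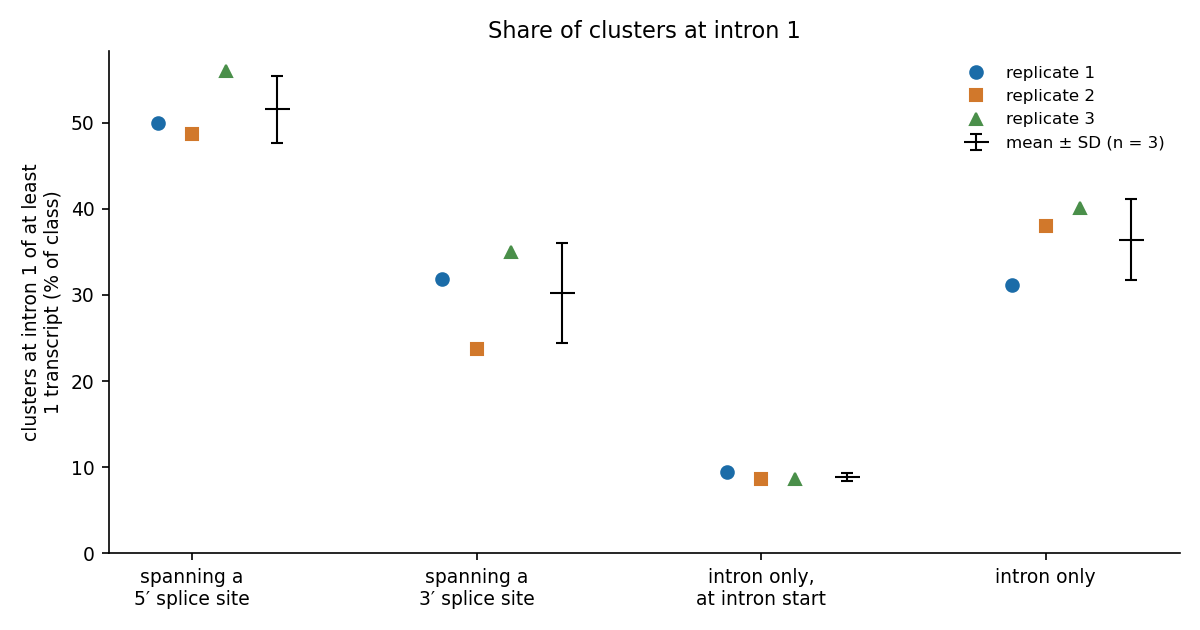
Share of clusters at intron 1 of at least 1 transcript, as percent of each class, for spanning clusters at 5′ and 3′ splice sites, intron-only clusters that begin at the first intron base and all intron-only clusters. Points are the 3 replicates and bars the mean ± SD (n = 3); spanning clusters at 5′ splice sites sit between 48.7% and 56.0%, and intron-only clusters at the intron start between 8.59% and 9.43%.

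Few spanning clusters recurred. A cluster of both other replicates overlapped 20, 16 and 5 members of replicates 1, 2 and 3, which is 11.2%, 7.31% and 11.1%, on average 9.86% ± 2.22 (SD, n = 3). Over all listed clusters the shares were 11.8%, 7.51% and 27.9%, so members were near the background in replicates 1 and 2 and below it in replicate 3. Exon clusters recurred in 6.57%, 5.68% and 23.3% of cases and intron clusters in 10.6%, 3.33% and 12.9%. Spanning minus exon clusters differed by 4.60, 1.63 and -12.2 points, a mean of -1.98 ± 8.95 (SD, n = 3; exact sign-flip permutation p = 1, adjusted p = 1). The sign of that mean was not stable: with replicate 2 or replicate 3 left out, and recurrence then counted in the 1 other replicate kept, it was 0.471 and 0.727. Spanning minus intron clusters differed by 0.531, 3.97 and -1.83 points, a mean of 0.891 ± 2.92 (SD, n = 3; exact sign-flip permutation p = 0.75, adjusted p = 1).

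Intron-only clusters that began at the first intron base were set against spanning clusters at the same kind of site. Members at 5′ splice sites were overlapped in both other replicates in 10.2%, 5.04% and 12% of cases, against 31.1%, 31.3% and 56.9% of the clusters that began at the intron's first base. The difference was -20.9, -26.2 and -44.9 points, a mean of -30.7 ± 12.6 (SD, n = 3), negative in 3 of 3 replicates. The exact sign-flip permutation test gave p = 0.25, adjusted p = 0.75, for this comparison chosen after the data had been seen. Among clusters with at least 3 distinct reads the difference was -16.4 points in replicate 1 and -20.4 in replicate 2, and 25 in replicate 3, where only 1 member at a 5′ splice site was left, so that the mean was -3.93 ± 25.1 (SD, n = 3; exact sign-flip permutation p = 1). The intron-only clusters also had more conversions, with medians of 16, 9.5 and 26, against 12.5, 5 and 16 for members at 5′ splice sites; the part of that difference in the recurrence was not tested. They were few at the other end of the intron, with 21, 21 and 4 intron-only clusters that ended at the last intron base.

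**Figure D4:**
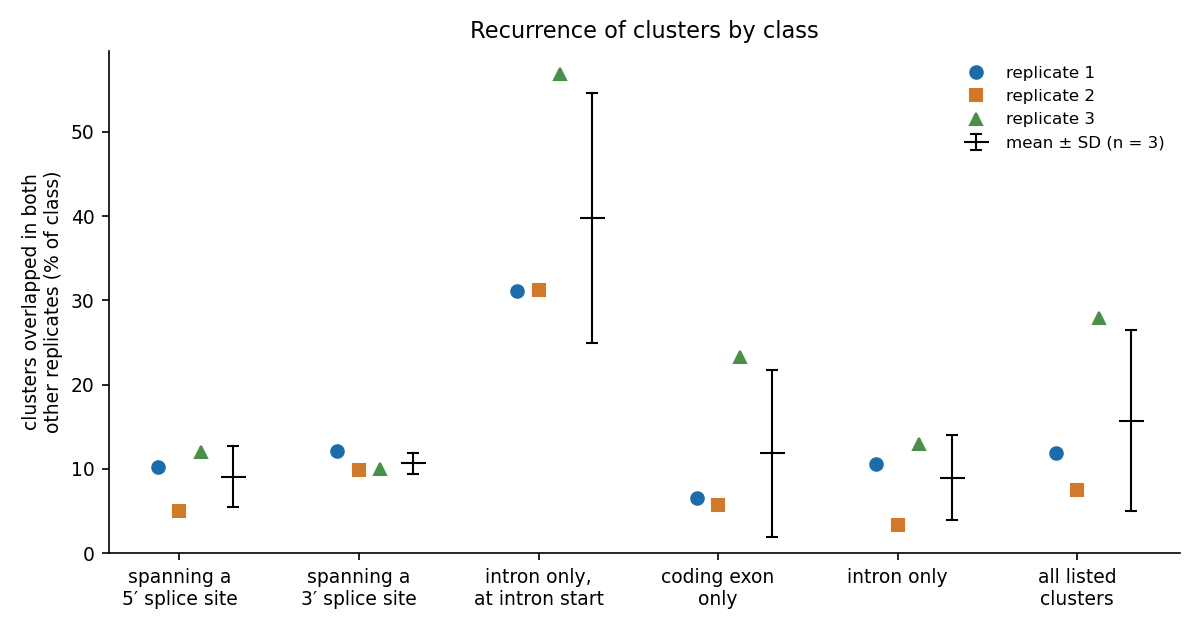
Share of clusters overlapped by at least 1 nt on the same strand in both other replicates, as percent of each class. Points are the replicates and bars the mean ± SD (n = 3); intron-only clusters at the intron start sit at 31.1% or above, and spanning clusters at 12.1% or below.

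In the series-wide list 27 of 169 members, 16.0%, were overlapped in all 3 replicates, beside 15.9% of all clusters in that list. Another 63 were overlapped in 2 replicates, 53 in 1 and 26 in none. Of all 8469 clusters in that list, 3181 were overlapped in 2 replicates, 2722 in 1 and 1220 in none. With replicate 3 left out, 76 members were overlapped in both of the other replicates, and the same count over all clusters is not given here. Members at 3′ splice sites had 17 of 89 in all 3 replicates, and those at 5′ splice sites 10 of 81. The overlapping cluster often did not cross the boundary itself. In replicates 1 and 2, 69 of 104 and 80 of 115 overlapping clusters crossed it. In replicate 3 only 21 of 53 did, 21 were intron alone and 8 exon alone. Of the 27 members found in all 3 replicates, 12 had a crosslink centre on one and the same base in each, as did 36 of the 63 found in 2. For these centres the matching share over all clusters is not given. Merged by position, the 443 members of the replicate lists made 397 loci, of which 354 had a spanning cluster in 1 replicate, 40 in 2 and 3 in all 3. With any listed cluster counted, spanning or not, 303 of these loci had one in 1 replicate, 66 in 2 and 28 in all 3. No matching count over all clusters is given.

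Long clusters were more often spanning in replicates 1 and 2. The median length was 38, 29 and 27 nt for spanning clusters in replicates 1, 2 and 3, against 33, 29 and 27 nt for exon clusters. The difference was 5, 0 and 0 nt, a mean of 1.67 ± 2.89 (SD, n = 3; exact sign-flip permutation p = 1, adjusted p = 1). At the long end, of exon, intron and spanning clusters of 60 nt or more, 7.79% in replicate 1 and 7.41% in replicate 2 were spanning. Under 30 nt the share was 1.78% in replicate 1 and 1.53% in replicate 2. Replicate 3 had 1.49% under 30 nt, 1.35% at 30 to 39 nt, 1.67% at 40 to 59 nt and only 3 clusters of 60 nt or more, none of them spanning. A longer stretch has more places at which it can meet a boundary, and the share of crossings that this accounts for was not tested.

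**Figure D5:**
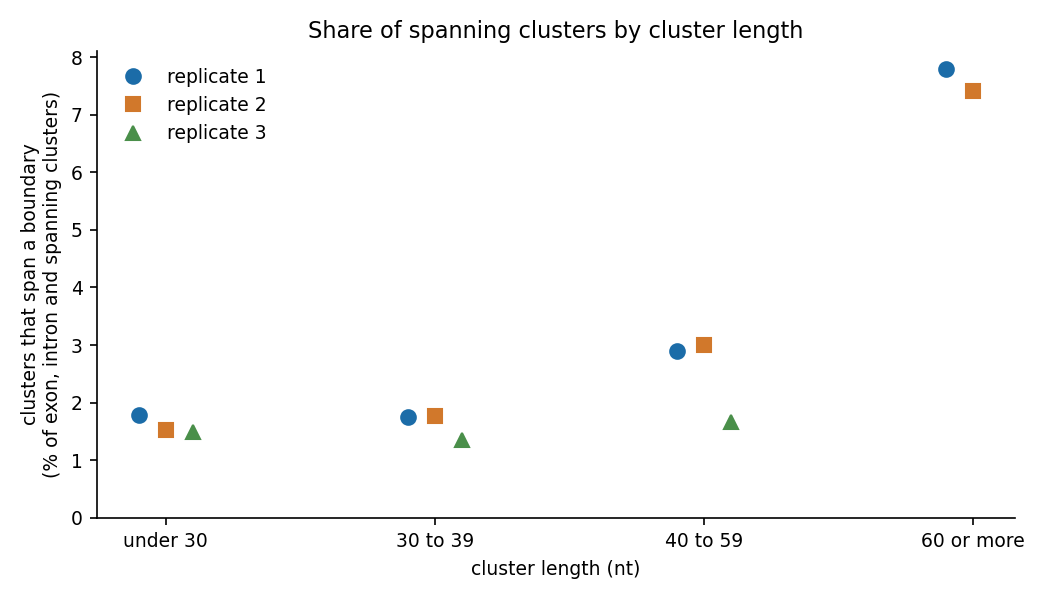
Clusters that span a boundary, as percent of exon, intron and spanning clusters in each length class (nt); points are the replicates, and classes with under 20 clusters are not drawn. The share is 7.79% in replicate 1 and 7.41% in replicate 2 at 60 nt or more, and under 2% in every replicate below 40 nt.

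By gene, 204 of 4415 genes with an exon, intron or spanning cluster in replicate 1 had a spanning one, which is 4.62%. The share was 3.66% in replicate 2 (253 of 6905 genes), 1.96% in replicate 3 (54 of 2753) and 5.38% in the series-wide list (194 of 3606). Ribosomal proteins had 10 of 46, 6 of 45 and 1 of 21 genes with a spanning cluster in replicates 1, 2 and 3, and 7 of 39 in the series-wide list. These shares were above those of all genes, in replicate 3 on 1 gene only. The 7 were RPL13, RPL17, RPL9, RPLP0, RPS12, RPS15 and RPS23, of which RPL13 had 43 conversions at a 3′ and 25 at a 5′ splice site and RPL9 had 46 at a 3′ splice site. These mRNAs are abundant and were not scaled for abundance. Coding hosts of small nucleolar RNAs had 5 of 16, 4 of 22 and 1 of 10 genes, and 4 of 13 in the series-wide list, namely GNB2L1, NOP56, PPAN and RPS12. Of these host genes RPS12 and RPS3 in replicate 1, RPL7A and RPS12 in replicate 2 and RPS12 in the series-wide list are also counted among the ribosomal proteins. The host genes, and the small RNA pathway genes given below, also had shares above those of all genes in each list, on counts of 5 or fewer.

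Genes of the splicing machinery had counts of 0 to 3, too few to set against the shares of all genes given above. Core spliceosome genes had 1 of 24, 3 of 31 and 0 of 12, and 2 of 24 in the series-wide list. Their leading member was in SNRPD1, a protein of the Sm ring, with 55 conversions at a 3′ splice site, and 30 in replicate 1, 34 in replicate 2 and no cluster in replicate 3. Only the replicate 2 cluster crossed the boundary, and another SNRPD1 transcript had an exon and no intron at the series-wide cluster. SR proteins and their kinases had 0 of 14, 2 of 15 and 0 of 3 genes, and 1 of 13 in the series-wide list, where SRSF6, a splicing regulator, had 24 conversions. HNRNP proteins, which bind pre-mRNA, had 2 of 20, 1 of 23 and 0 of 11, and 0 of 18 in the series-wide list.

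Genes of the small RNA pathway had 2 of 12, 2 of 15 and 2 of 15 with a spanning cluster, and 1 of 14 in the series-wide list. DROSHA was the only gene of the lists used here with a spanning cluster in all 3 replicates, while the helicase DDX5 had one in replicates 1 and 3 and the Argonaute partner TNRC6A in replicate 2. Known mirtron hosts had 0 of 3, 1 of 7 and 0 of 2, and 0 of 4 in the series-wide list; the gene was ATG4D, an autophagy protease. Translation factors had 1 of 22, 2 of 25 and 1 of 15 genes, and 2 of 20 in the series-wide list. Histone genes had 1 of 27, 1 of 23 and 1 of 14, and 3 of 25 in the series-wide list. Genes of glycolysis and the cytoskeleton had 3 of 16, 2 of 18 and 0 of 8, and 3 of 15 in the series-wide list, where PKM is counted under 2 symbols in replicate 2 and in the series-wide list.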

How the data were processed

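Per the file headers and attributes, the authors deposited 4 cluster lists, 1 for each of the 3 replicates and 1 series-wide, with an estimated false discovery rate of 5% and 2 sequencing runs per replicate. Replicate lists were filtered by length; the series-wide list is marked unfiltered. Bowtie2 2.1.0 and the hg19 build are named per the submitters' processing notes. The main value is a whole-number count per cluster, deposited by the authors without scaling to depth: its T-to-C conversions. The authors also deposited an entropy score, which was read and not used. Positions, reads, distinct reads, crosslink centres and annotation came from the attribute text.

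Spanning clusters, the boundary position and overlaps (at least 1 nt, same strand) were computed with Python 3.11.15, numpy 2.4.6 and pandas 2.3.3, and checked on simulated data. Exon-only and intron-only clusters exclude noncoding transcripts, mitochondrial clusters and repeats of structured RNA. A splice-site mark was read as covering the first or last intron base. This reading and that of the crosslink centre came from the deposited values and not from documentation. Differences were formed within replicates and tested with exact two-sided sign-flip permutations, adjusted by Benjamini-Hochberg over 9 tests, 4 of them chosen after the data were seen. Named genes were the first 12 members at each kind of site in the series-wide list, ranked by replicates overlapped and then conversions, the first of each gene list, and any gene with members at 4 or more boundaries, of which there was none. For 1 gene chosen by this rule the result is not reported here. CKB, DDX5, TNRC6A, ATG4D and the further ribosomal protein and host genes were named after their values were seen. The members and lists were chosen with earlier results of these data known. Alternatives changed the read, conversion, transcript, repeat, overlap and length filters and left out each replicate. Intervals for single counts are not given, since reads carry no molecular identifiers.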

Additional observations from a re-analysis of the deposited data

How the results depend on the processing

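Of 127 alternative values over 12 results, 105 kept their direction or, where no test was run, stayed within 1 SD or 1.5 times of the value given, and a kept direction does not mean a kept size. The share of clusters that span a boundary became 0.882% with coding accessions only, 0.778% without members that another transcript lists as exon alone, and 2.00% in the series-wide list. The share of conversions became 0.533% without clusters on repeats, 0.685% in distinct reads and 0.390% in the series-wide list. The difference of 5′ minus 3′ sites became -9.88 points with at least 3 distinct reads, -2.70 with clusters at or above the median conversions and -4.73 in the series-wide list. Under the first 2 of these and with coding accessions, the log2 difference of spanning minus exon clusters became 0.45, 0.027 and 0.025. Recurrence of spanning minus exon clusters became 1.22 points at or above the median conversions, 1.16 with coding accessions and 6.22 in the series-wide list. Recurrence of spanning minus intron clusters became -2.04 with at least 3 distinct reads and -0.973 without members known to cross by 2 bases or fewer. The cause of these shifts was not tested. Leaving out 1 replicate at a time gave -4.23 to 0.727 points for recurrence against exon clusters, -0.13 to 0 for the log2 difference against exon clusters, 0 to 2.50 nt for the length difference, and 34 to 76 members in place of 27 overlapped in every replicate kept, with 76 reached without replicate 3. Without replicates 1, 2 and 3, recurrence of spanning minus intron clusters was 4.21, 6.15 and 5.22 points and the 5′ minus 3′ difference 9.67, 4.72 and 3.27 points. With at least 3 distinct reads, which leaves 2 members in replicate 3, the difference in recurrence against clusters at the intron start shrank to -3.93 points (SD 25.1), those at intron 1 and in the 5′ untranslated region were 23.5 (SD 20.5) and 18.3 points (SD 16.0), the log2 difference against intron clusters was 0.63 (SD 0.82) and the length difference 6.33 nt (SD 0.764). The means of these 5 had no change of sign, apart from the length difference of 0 without replicate 1. No groups could be paired, because the labels give a single group. The tests used differences between kinds of cluster, formed within each replicate. Members supported by 2 distinct reads limit the precision, most of all in replicate 3.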
